A study of Mus musculus with 4 samples.

Results

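Expression of 9 genes was followed that encode transcription factors and chromatin regulators of heart formation outside the T-box family: Nkx2-5, Isl1, Hand1, Hand2, Mef2c, Smarcd3, Mesp1, Myocd and Tcf21. They were chosen by name, and every probe whose RefSeq accession maps to one of them was taken, which gave 9 probes for 9 genes of the 20660 genes named on the array. The cells were Flk-1-positive derivatives of the mouse embryonic stem cell line EB5 carrying a red fluorescent protein reporter of Hoxb6 (Hoxb6-RFP). They had been differentiated for 6 days on OP9, a mouse stromal feeder line, and sorted for Flk-1, the VEGF receptor encoded by Kdr, and for the reporter. The RFP-positive fraction and the RFP-negative fraction were each measured on 2 arrays. Both fractions thus share the line, the reporter, the feeder and the Flk-1 gate, and were separated by the reporter signal. All cells came from 1 cell line, and the sources used here do not say whether the 2 arrays of a fraction came from separate cultures, so that p-values measure the spread between these arrays, which may be technical.

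The heart forms from mesoderm that passes through the primitive streak while briefly expressing Mesp1. These progenitors then express Isl1 in the second heart field and Nkx2-5 in both heart fields. Hand1, Hand2 and Mef2c act in the growing chambers, Smarcd3 (Baf60c) links such factors to chromatin remodelling complexes, Myocd switches on muscle genes together with serum response factor, and Tcf21 marks the epicardium and the pharyngeal mesoderm. Mesp1, Hand1, Hand2 and Tcf21 belong to the basic helix-loop-helix family, whose dimers bind the E-box. Hand1 is also strongly expressed in extraembryonic and lateral mesoderm, and Flk-1 marks mesoderm that can yield heart, vessel and blood cells. Hoxb6 is expressed in posterior lateral plate mesoderm.

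Promoter windows from 250 bases before to 50 bases after the start site are shown for the gene with the largest difference between the fractions, Mesp1, and for the pair of tested genes with the widest spread between arrays of the same fraction, Nkx2-5 and Hand2. They are RefSeq sequences of the gene strand, build GRCm38, at chr7:79793541-79793840 (minus strand), chr17:26841516-26841815 (minus strand) and chr8:57320733-57321032 (plus strand). Capitals mark E-boxes (CANNTG, which reads the same on both strands).
Mesp1: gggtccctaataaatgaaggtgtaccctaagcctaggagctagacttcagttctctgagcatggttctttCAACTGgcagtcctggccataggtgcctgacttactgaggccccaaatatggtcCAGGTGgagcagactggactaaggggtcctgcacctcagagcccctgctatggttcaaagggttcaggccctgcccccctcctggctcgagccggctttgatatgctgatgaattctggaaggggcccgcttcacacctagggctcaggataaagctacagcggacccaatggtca
Nkx2-5: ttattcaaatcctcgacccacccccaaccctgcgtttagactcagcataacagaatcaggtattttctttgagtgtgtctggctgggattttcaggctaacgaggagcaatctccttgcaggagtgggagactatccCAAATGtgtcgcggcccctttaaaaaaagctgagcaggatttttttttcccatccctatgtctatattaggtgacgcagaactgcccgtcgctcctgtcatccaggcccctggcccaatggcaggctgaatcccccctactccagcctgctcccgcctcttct
Hand2: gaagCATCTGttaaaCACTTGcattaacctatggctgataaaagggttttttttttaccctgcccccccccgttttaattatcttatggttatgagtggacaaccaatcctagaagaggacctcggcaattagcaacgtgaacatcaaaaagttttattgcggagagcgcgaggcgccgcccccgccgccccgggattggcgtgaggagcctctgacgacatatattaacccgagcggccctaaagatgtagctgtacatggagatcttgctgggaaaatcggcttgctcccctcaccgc
Mesp1 and Hand2 held 2 E-boxes each in this window and Nkx2-5 held 1. An entry was found for 7 of the 9 genes, with 9 windows because Mef2c has 3, and 7 of the 9 windows held an E-box, as did 72.3% of all 32851 promoter windows. The GATA motif AGATAA, searched on both strands, stood in 3 of the 9 windows (Hand2, Tcf21 and Isl1) and in 11.2% of all. These matches describe the letters of the windows.

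Each value is a log2 signal set against the 75th percentile of its array, so that 0 is the 75th percentile of all probes on that array. Differences are RFP-positive minus RFP-negative. The 4 arrays lay on 1 slide in 1 scan, which leaves no batch of slide or scan to test, and between 55.2% and 59.3% of their spots were marked as well above background by the scanner software. RFP-positive replicate 2 stood apart, with Pearson correlations of 0.964, 0.953 and 0.95 to RFP-positive replicate 1 and RFP-negative replicates 1 and 2 across 13434 tested genes, which are not independent replicates. The other arrays correlated at 0.974 to 0.983 with each other. On all 4 arrays the Hoxb6 spot was not well above background, which leaves the reporter labels without a check from that gene. Kdr was well above background on all 4 arrays with both of its probes. The stronger lay at 4.41 and 4.36 in RFP-positive and 4.18 and 4.33 in RFP-negative cells, a difference of 0.13. The other lay at 3.83 and 4.44 against 3.59 and 3.69, a difference of 0.50. Because sorted cells were measured in bulk, fewer cells of a type and less RNA per cell cannot be told apart in anything below.

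Of the 9 genes, 8 were well above background on all 4 arrays and Myocd was not. Under limma's moderated test with Benjamini-Hochberg adjustment, 0 of the 8 passed an adjusted p of 0.05 (0% of the 13434 genes tested passed). At an unadjusted p under 0.05 there were likewise 0 of 8, against 6.49% of all genes tested (2.77% higher and 3.72% lower in RFP-positive cells). None of the 8 was 2-fold or more apart between every RFP-positive and every RFP-negative array, which held for 1.36% of the genes tested. With 2 arrays against 2, an exact permutation test of a single gene cannot give a two-sided p below 0.333. In simulated data with 200 of 13434 genes changed, by up to 3 log2 units, the fit also called none of the changes at the adjusted threshold. A gene that did not pass is therefore not shown to be equal in the fractions. The adjusted p of the 8 ran from 0.745 for Mesp1 to 0.991 for Tcf21. Their median difference was 0.02, and that of all tested genes was −0.05. The fractions did not overlap for 2 of the 8, Hand1 (higher) and Mesp1 (lower), a share that lies below the 40.3% among all tested genes. Separation in the higher direction was seen in 18.8% and in the lower direction in 21.6% of all tested genes.

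**Figure D1:**
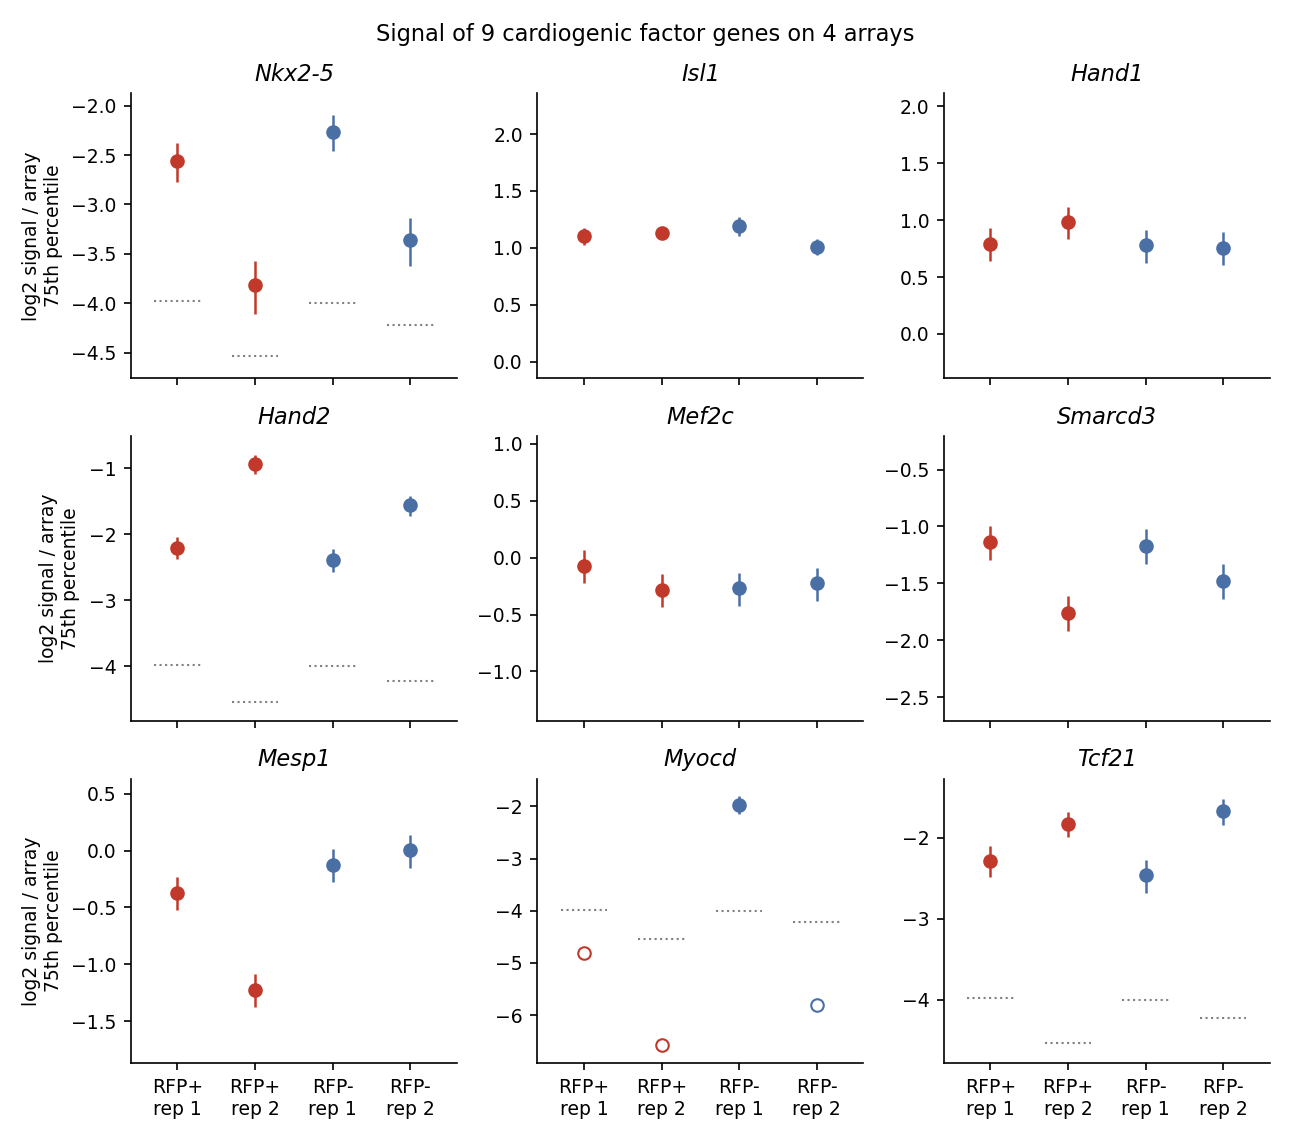
Log2 signal over the array's 75th percentile (y axes, each with its own range) for the 9 genes on the 4 arrays, RFP-positive in red and RFP-negative in blue. Bars are the scanner software's error of the spot or, for Isl1, the SD over 10 spots. Open circles are spots not well above background, drawn with no bar, and dotted lines in the panels of Nkx2-5, Hand2, Myocd and Tcf21 are the lowest signal well above background on that array. Isl1, Hand1 and Mef2c are level across the arrays, while Nkx2-5, Hand2 and Tcf21 spread within each fraction.

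Mesp1, the bHLH factor that marks nascent cardiac and other anterior mesoderm, had the largest difference of the 8. It lay at −0.37 and −1.22 on the RFP-positive arrays, against −0.12 and 0.00 on the RFP-negative arrays. Both RFP-positive arrays were thus below both RFP-negative arrays, but replicate 2 of the RFP-positive fraction was much lower than the others. The means were −0.80 ± 0.60 in RFP-positive and −0.06 ± 0.09 in RFP-negative cells (SD, n = 2 each). The difference of −0.74 (SE 0.36, limma adjusted p 0.745) corresponds to 0.60-fold with a 95% interval from 0.32-fold to 1.14-fold. Without RFP-positive replicate 2 it was −0.31, and without RFP-positive replicate 1 it was −1.16. The probe targets NM_008588, and the gene lies at chr7:79792241-79793590 (GRCm38).

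The arrays' order for Mesp1 matched that of the summed signals of 3 marker lists. The 8 adipocyte markers, all tested, summed to 20.2 and 14.7 times the 75th percentile in RFP-positive cells, against 48.6 and 58.6 times in RFP-negative cells. Of the 10 OP9 stroma and fibroblast markers 8 were tested, while Dcn and Postn were well above background on none of the arrays. The 8 tested summed to 22.5 and 21.5 against 27.5 and 43.8. The 6 smooth muscle markers summed to 21.9 and 20.3 against 28.3 and 44.3. Lower in RFP-positive cells without overlap were 8 of the 8 adipocyte, 6 of the 8 tested stroma and 5 of the 6 smooth muscle markers. Among all tested genes the share was 21.6%. The lists were chosen with earlier results of these data known, so this contrast is no independent support. In all 3 sums RFP-negative replicate 2 was highest and RFP-positive replicate 2 lowest. A sum weighs its brightest genes most, here Col1a2 for stroma and Tagln for smooth muscle. Singly, each adipocyte marker had the Mesp1 order. In the stroma list Col1a1, Col1a2, Col3a1 and Timp1 had it, but Thy1, Vcam1, Pdgfrb and Lum did not. Of the smooth muscle markers Tagln and Myl9 had it, but Acta2, Cnn1, Actg2 and Myh11 did not. Outside the 3 lists the epithelial marker Epcam also had it. The share of all tested genes with this order was not counted, so the single-gene counts have no background to be set against. For Mesp1 the order within the RFP-negative fraction rests on 0.13 log2 units. The median difference between the RFP-negative arrays over all tested genes was larger, at 0.25. The part of the 3 lists in the Mesp1 values was not tested.

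Isl1, a LIM homeodomain factor of the second heart field, was the most closely measured of the genes, since its probe was printed 10 times on each array. The spot means were 1.102 and 1.13 on the RFP-positive arrays and 1.19 and 1.01 on the RFP-negative arrays. The RFP-positive values thus lay between those of the 2 RFP-negative arrays. Single spots ran from 407.1 to 479.0 and from 523.5 to 577.3 scanner units on RFP-positive replicates 1 and 2. On RFP-negative replicates 1 and 2 they ran from 387.6 to 459.1 and from 388.0 to 450.0. The SD over the 10 spots was 0.07 and 0.04 log2 on the RFP-positive arrays and 0.08 and 0.07 on the RFP-negative arrays. For the probes of 10 spots within 1 log2 unit of Isl1, 70 to 80 per array, the median SD was 0.07 on each array. The difference between the fractions was 0.02 (SE 0.23, limma adjusted p 0.982), with a 95% interval from 0.67-fold to 1.53-fold.

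**Figure D2:**
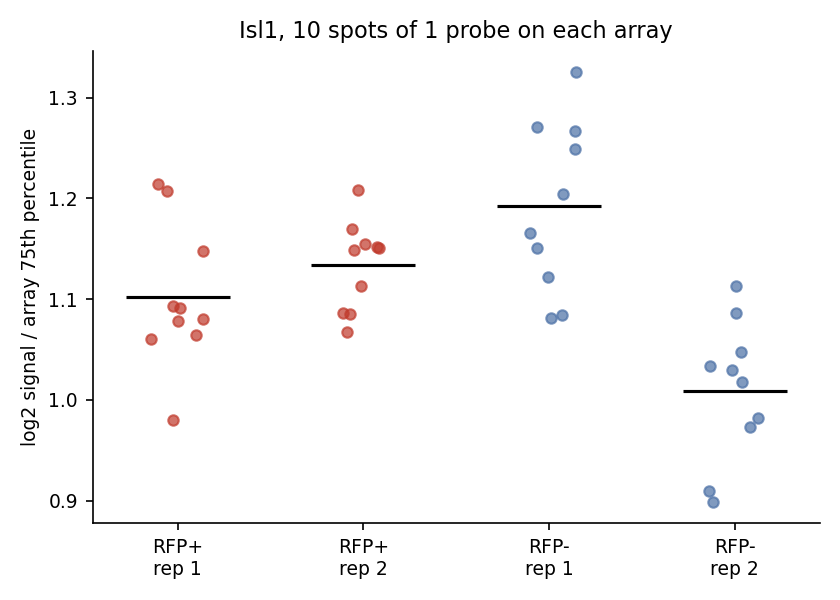
Log2 signal over the array's 75th percentile (y axis) of the 10 Isl1 spots on each array (points, spread sideways for sight), with the mean of the spots as a line. The RFP-positive means of 1.102 and 1.13 lie between the RFP-negative means of 1.19 and 1.01.

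Nkx2-5, the homeodomain factor of early cardiac precursors, gave a weak signal in every sample. It lay at −2.56 and −3.82 on the RFP-positive arrays, against −2.27 and −3.36 on the RFP-negative arrays. The fractions overlapped, and in each of them replicate 1 was above replicate 2. Scanner signals were 35.0 and 17.7 units in RFP-positive cells and 38.0 and 20.3 units in RFP-negative cells, with errors of 13.8% and 18.3% against 12.5% and 17.0%. RFP-positive replicate 2 was 0.72 log2 units above the lowest signal well above background on that array, which is little room for a precise value. The difference was −0.38 (SE 0.58, limma adjusted p 0.858), or 0.77-fold with a 95% interval from 0.27-fold to 2.21-fold. It was 0.25 without RFP-positive replicate 2, 0.17 without RFP-negative replicate 1 and −0.23 under normexp background correction. Normexp was run with an offset of 50 scanner units, which by construction shrinks log2 differences of weak signals.

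Hand1 and Hand2 are paralogous bHLH factors, Hand1 of the outer curvature of the left ventricle and of extraembryonic mesoderm, Hand2 of the right ventricle and the limb. Hand1 lay at 0.79 and 0.98 on the RFP-positive arrays, against 0.78 and 0.76 on the RFP-negative arrays. The fractions did not overlap, but RFP-positive replicate 1 exceeded RFP-negative replicate 1 by only 0.01 log2 units, and the scanner's error of each spot was about 10% of its signal. Its difference was 0.12 (SE 0.23, limma adjusted p 0.888), with a 95% interval from 0.72-fold to 1.64-fold. Hand2 lay at −2.20 and −0.94 on the RFP-positive arrays and at −2.39 and −1.56 on the RFP-negative arrays. Here the fractions overlapped, and replicate 2 exceeded replicate 1 in each fraction, by 2.401-fold in RFP-positive and 1.78-fold in RFP-negative cells. Scanner errors of the 4 Hand2 spots lay between 10.14% and 12.1%. The Hand2 difference was 0.41 (SE 0.54, limma adjusted p 0.835), and its interval ran from 0.50-fold to 3.50-fold. The sign of the Hand2 difference rested on single arrays, since it was −0.23 without RFP-positive replicate 2 and −0.01 without RFP-negative replicate 1. Under normexp background correction, with its offset of 50 units, the Hand2 difference was 0.18.

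Mef2c, a MADS-box factor that activates muscle genes and is also needed in endothelium, was level. It lay at −0.07 and −0.28 in RFP-positive cells, against −0.27 and −0.23 in RFP-negative cells. The fractions overlapped, with the highest and the lowest value both in the RFP-positive fraction. The difference was 0.07 (SE 0.23, limma adjusted p 0.926), with an interval from 0.69-fold to 1.60-fold. The gene has 34 transcripts in the RefSeq table at chr13:83504017-83667079 and the array 1 probe, annotated to NM_025282, so that isoforms were not separated.

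Smarcd3 encodes the BAF60c subunit of the BAF chromatin remodelling complex, which helps cardiac factors to open their targets. Its values were −1.14 and −1.76 on the RFP-positive arrays and −1.17 and −1.48 on the RFP-negative arrays. The fractions overlapped, RFP-positive cells holding both the highest and the lowest value. The difference was −0.13 (SE 0.31, limma adjusted p 0.911), with an interval from 0.52-fold to 1.62-fold. It was 0.18 without RFP-positive replicate 2 and −0.04 with arrays scaled to their median. Smarcd1 and Smarcd2, the paralogues that take its place in other forms of the complex, differed by 0.40 (limma p 0.388) and −0.05 (limma p 0.851).

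Myocd, the coactivator of serum response factor in heart and smooth muscle, was well above background on RFP-negative replicate 1 alone. Its signals were 7.40 and 2.60 scanner units in RFP-positive cells, both not well above background, against 47.0 and 3.70 units in RFP-negative cells. RFP-negative replicate 2 was likewise not well above background. With the filter on dim probes the gene was not tested, and with no filter its difference was −1.80 (SE 1.41, limma p 0.260, adjusted p 0.884). On RFP-negative replicate 1 alone it was at least 4.90-fold higher than the RFP-positive level, set at the lowest signal well above background on the RFP-positive arrays. The mean of both RFP-negative arrays, which includes the array not well above background, stood 1.29-fold above that level and is no bound. The Myocd signal thus rests on 1 array. On that array the summed smooth muscle markers stood at 28.3, below the 44.3 of RFP-negative replicate 2, where Myocd was not well above background, and the part of such cells in the Myocd signal was not tested.

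Tcf21, a bHLH factor of epicardium and pharyngeal mesoderm that is also found in fibroblasts, lay at −2.28 and −1.82 in RFP-positive cells. In RFP-negative cells it lay at −2.46 and −1.67, so that the RFP-positive values fell between the RFP-negative ones. The difference was 0.01 (SE 0.37, limma adjusted p 0.991), with an interval from 0.52-fold to 1.97-fold. Its sign changed with the background correction, at −0.09 under normexp, and with left-out arrays. Of 5 epicardial markers, Upk3b and Msln were well above background on none of the arrays, and Tbx18 did not pass the filter. Wt1 and Aldh1a2, the remaining ones, differed by −0.31 (limma p 0.306) and 0.14 (limma p 0.697).

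**Figure D3:**
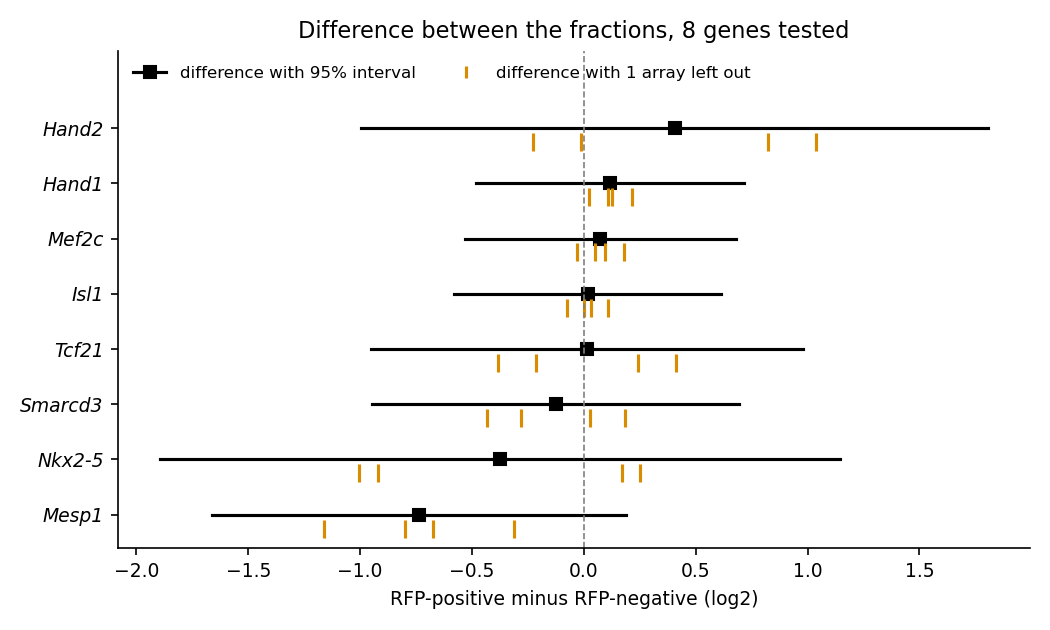
Difference between the fractions (x axis, log2, RFP-positive minus RFP-negative) for the 8 genes tested, with the 95% interval of the limma fit, and orange ticks for the same difference with each array left out in turn. Every interval spans 0, and the ticks lie on both sides of 0 for all but Hand1 and Mesp1. The fractions of Hand1 and Mesp1 did not overlap, so no left-out array can turn their sign. For Isl1 and Mef2c the ticks stay within 0.18 of 0.

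The mean of the differences between replicates 2 and 1 in the 2 fractions was larger in size than the difference between the fractions for 6 of 8, the exceptions being Hand1 and Mesp1, and for 46.9% of all tested genes. It was −1.18 for Nkx2-5, 1.05 for Hand2, 0.63 for Tcf21 and −0.46 for Smarcd3. In these 4 genes both arrays numbered 2 lay on 1 side of both arrays numbered 1, above for Hand2 and Tcf21 and below for Nkx2-5 and Smarcd3. Such separation was seen in 35.4% of all tested genes. Isl1, Hand1 and Mef2c differed by at most 0.21 between the 2 arrays of a fraction, whereas the median over all tested genes was 0.38 in RFP-positive and 0.25 in RFP-negative cells. Undifferentiated cell markers (Pou5f1, Nanog and Sox2) summed to 500.9 and 403.9 in RFP-positive cells and 581.8 and 484.6 in RFP-negative cells. The sum is nearly all Nanog, at 8.96 and 8.66 against 9.18 and 8.92, which has the array order of Nkx2-5. Pou5f1 and Sox2 have other orders and lie far lower. Pou5f1 lay at 0.24 and −1.58 against 0.47 and 0.29, and Sox2 was well above background on only 3 arrays. The sum is therefore no measure of undifferentiated cells that the markers share. The 4 endoderm and epithelial markers summed to 12.7 and 13.6 against 11.4 and 24.0. Epcam and Cldn6 were lower in RFP-positive cells without overlap, at −1.55 and −1.52, while Foxa2 and Sox17 overlapped, at 0.14 and 0.36. The part of either list in the values of the 9 genes was not tested. The 7 endothelial and Flk-1-positive mesoderm markers summed to 53.4 and 67.3 against 46.8 and 47.1. Of these, 5 were higher in RFP-positive cells, while Tie1 and Emcn differed by −0.13 and −0.24. Cdh5 lay at 4.70 on RFP-positive replicate 2, but at 3.76 on replicate 1. The 5 blood markers summed to 13.3 and 14.0 against 9.35 and 10.4, most of it Tal1. Here 4 were higher in RFP-positive cells, while Ptprc differed by −0.40. Cardiomyocyte markers, 3 of 6 tested, summed to 1.95 and 1.61 against 1.74 and 2.21.

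**Figure D4:**
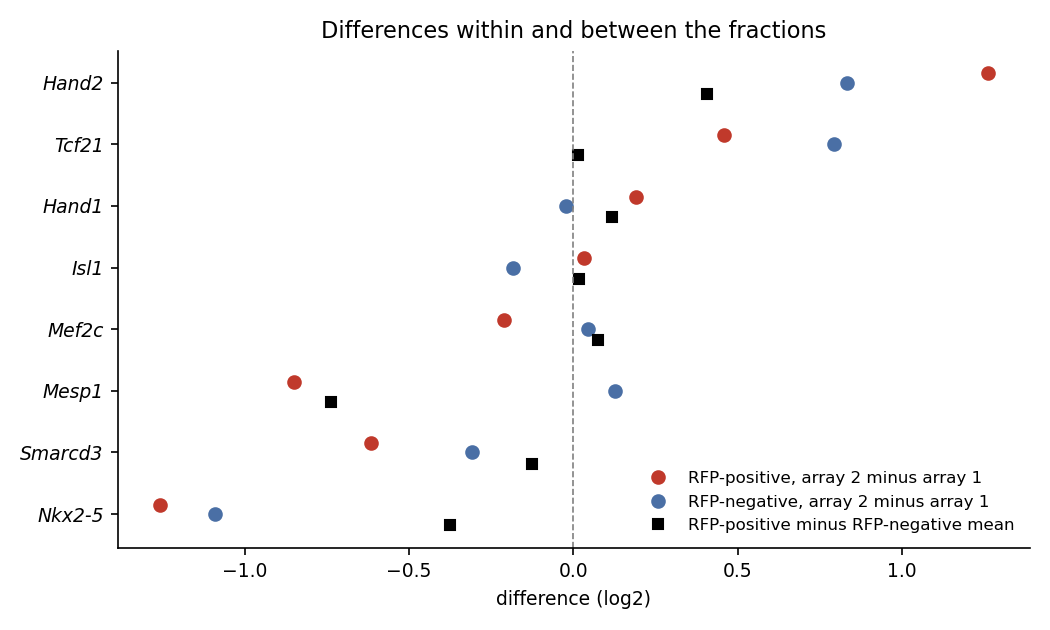
Differences on the log2 scale (x axis) between array 2 and array 1 within the RFP-positive fraction (red) and the RFP-negative fraction (blue), and between the fraction means (black squares), for the 8 genes tested. For Hand2, at 1.26 and 0.83, and Nkx2-5, at −1.26 and −1.09, the points within both fractions lie farther from 0 than the square.

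Likeness of profile was measured as the root mean square difference over the 4 arrays after each gene was centred on its own mean, among 11970 genes well above background on all arrays, the 9 genes and predicted gene models left out. The nearest to Mesp1 were Znhit2 (0.019) and Dlgap5 (0.024), and to Nkx2-5 Ankrd45 (0.041) and Ppp1r18 (0.101). Osbp (0.034) and Akap11 (0.040) were nearest to Hand2, and Usf3 (0.027) and Invs (0.028) to Tcf21. For Smarcd3 they were Polr3k (0.011) and Akr1b10 (0.014). The level genes had very many neighbours, with 4056 genes within 0.2 of Isl1, 3758 of Hand1 and 4086 of Mef2c, but 69 of Nkx2-5 and 107 of Hand2. Smarcd3 had 2499, Mesp1 652 and Tcf21 492. The measure is not scaled to a gene's spread, so level genes lie near each other by construction. These counts therefore restate the spread, and with 4 arrays a near match is no sign of shared regulation. Synrg (0.013) and Ufc1 (0.015) were closest to Isl1, Dock6 (0.013) and Ndufs3 (0.014) to Hand1, and Dusp12 (0.013) and Armc1 (0.013) to Mef2c. Among the genes themselves the closest pair was Isl1 and Hand1 (0.095), both level, and the most distant Nkx2-5 and Hand2 (1.19), both widely spread.

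The 9 genes act with other cardiac factors, and 18 of 20 such partners were tested. None passed the adjusted threshold, where the background was 0%, and 1 was higher at an unadjusted p under 0.05, against 2.77% of all tested genes. The fractions did not overlap for 5 higher and 1 lower partner, where 18.8% of all tested genes were higher and 21.6% lower in this way. The list's median difference was 0.05. This list and those below were chosen with earlier results of these data known. Their counts beside the shares of all genes are therefore no independent support. Tbx5, a partner of Nkx2-5, lay at −3.01 and −2.05 in RFP-positive and −4.12 and −3.50 in RFP-negative cells, where 1 of 2 arrays was well above background. Its difference of 1.28 (SE 0.43) had a limma adjusted p of 0.745. Under normexp background correction, whose offset of 50 units shrinks differences of weak signals, the difference was 0.24. The difference of 1.28 is set against a mean that includes RFP-negative replicate 1, which was not well above background. Tbx5, the 1 partner at an unadjusted p under 0.05, entered the test through the RFP-positive arrays, where it was higher. Neither the size of its difference nor its p is therefore support for a change. Irx4, a ventricular homeobox factor, lay at −3.68 and −4.71 in RFP-positive and −3.28 and −0.98 in RFP-negative cells. It differed by −2.06 (SE 0.84, limma adjusted p 0.745), most of which came from RFP-negative replicate 2. Irx4 was well above background on 1 of 2 RFP-positive arrays, and its mean there includes replicate 2, which was not. It entered the test through the RFP-negative arrays, where it was higher, so neither the size nor the p is support for a change. Gata6 lay at 2.79 and 2.71 against 2.47 and 2.28, and Tbx3 at 2.30 and 2.64 against 2.23 and 1.95, with limma adjusted p of 0.75 and 0.755.

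Relatives of the 9 genes, tested for 16 of 17, had a median difference of −0.02, and 0 passed the adjusted threshold. Without overlap 4 were higher (18.8% of all tested genes) and 2 lower (21.6%). At an unadjusted limma p under 0.05, 1 was higher (2.77% of all tested genes) and 0 lower (3.72%). Mrtfa and Mrtfb, which like Myocd are coactivators of serum response factor, lay at −0.69 and −0.28 against −1.34 and −1.19, and at 2.70 and 2.78 against 2.20 and 2.45. Their differences were 0.78 (limma adjusted p 0.745) and 0.41 (limma adjusted p 0.75). Smarcc1, a core subunit of the complex that contains Smarcd3, differed by 0.41 and Nkx2-6, an Nkx2-5 relative of pharyngeal tissue, by −0.46, both with a limma adjusted p of 0.75. Mesp2, the neighbour and paralogue of Mesp1, differed by −0.12 (limma p 0.655).

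Among genes that these factors activate, 14 of 22 cardiac muscle genes and 8 of 9 smooth muscle genes were tested, and 0 passed the adjusted threshold. At an unadjusted limma p under 0.05 there were likewise 0 in both lists, against 6.49% of all tested genes. Cardiac muscle genes had a median of −0.29, with 2 higher (18.8% of all tested genes) and 1 lower (21.6%) without overlap, and Actn2, Ryr2, Hcn4 and Xirp1 were well above background on none of the arrays. Tnnt2, cardiac troponin T, lay at −0.17 and 0.11 against −0.85 and −0.51, and Myl4, the atrial light chain, at 3.45 and 4.40 against 3.12 and 2.98. Both were higher on each RFP-positive array, at 0.65 and 0.88 (limma adjusted p 0.745 each). Tnnc1 and Myh7 differed by −0.42 (limma adjusted p 0.762) and 0.69 (limma adjusted p 0.765). The smooth muscle genes had a median of −0.62, with 0 higher and 5 lower without overlap, against the same 18.8% and 21.6% of all tested genes. Cnn1, Myl9, Actg2 and Acta2, the 4 of smallest p, differed by −0.62, −0.79, −0.84 and −0.99 (limma adjusted p 0.745 each). The stromal and adipocyte marker sums given beside Mesp1 were also lower in RFP-positive cells, and their part in these values was not tested.

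Signals and receptors of cardiac mesoderm, tested for 14 of 15, had a median of 0.25, and 0 passed the adjusted threshold. Without overlap 6 were higher (18.8% of all tested genes) and 1 lower (21.6%). At an unadjusted limma p under 0.05, 2 were higher (2.77% of all tested genes) and 0 lower (3.72%). Nodal, the streak signal, lay at 1.07 and 0.88 in RFP-positive and 0.29 and 0.14 in RFP-negative cells, a difference of 0.77 (limma adjusted p 0.737). Pdgfra, a receptor of cardiac and paraxial mesoderm, lay at 0.71 and 1.09 against 0.16 and 0.07, a difference of 0.79 (limma adjusted p 0.745). Bmp4 differed by 0.52 and the Wnt inhibitor Dkk1 by 0.64, each with a limma adjusted p of 0.745 and no overlap between the fractions.

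**Figure D5:**
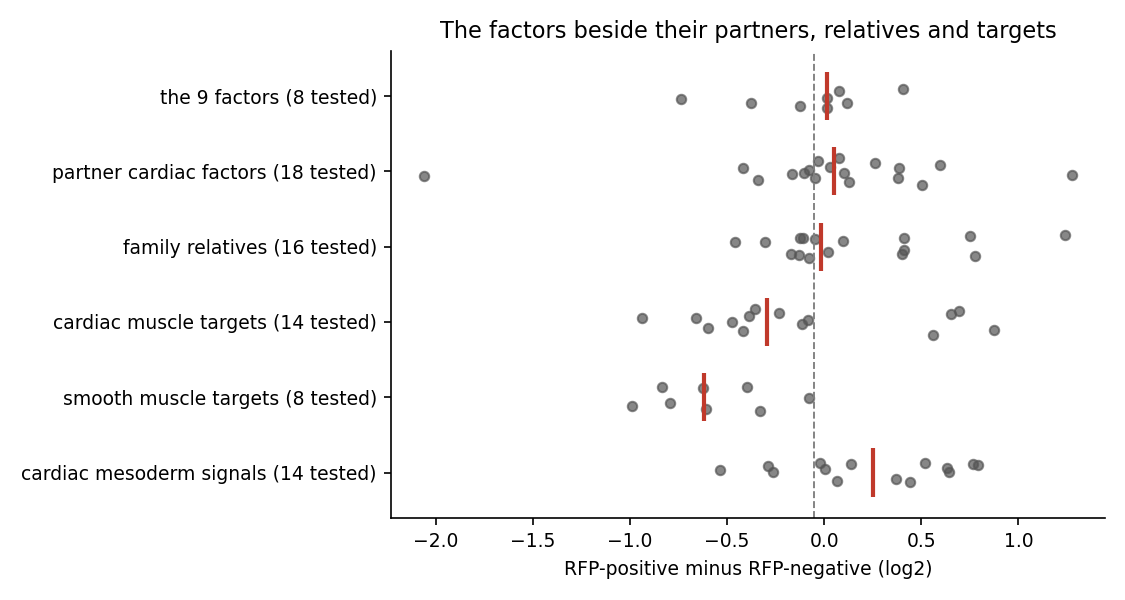
Difference between the fractions (x axis, log2, RFP-positive minus RFP-negative) for each tested gene of the 9 factors and of 5 lists of partners, relatives, targets and signals (points), with each list's median in red and the median of all tested genes as a dashed line. The smooth muscle list has the lowest median, −0.62, and the signals the highest, 0.25, with the 9 factors at 0.02.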

How the data were processed

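The 4 deposited arrays (Agilent, 1 colour, Cy3) held scanner intensity values made by the authors with the scanner's Feature Extraction software, as the file headers record. Per the file headers, these signals are background-subtracted. The deposited value table holds the same intensities, each array multiplied by 1 constant of 5.39 to 6.45. Control spots (3671 per array) and flagged spots (115 to 153 per array) were left out. Log2 of the processed signal minus that of the array's 75th percentile was taken, and spots of a probe were averaged. Probes were named by RefSeq accession (GRCm38 table). Of 55681 probes, 27235 had 1 symbol, 0 several and 28446 none. A gene was represented by its brightest probe and tested if that was well above background on both arrays of a fraction. The comparison of the fractions used limma 3.58.1 (R 4.3.3) (2 residual degrees of freedom), two-sided, Benjamini-Hochberg adjusted over 13434 genes. The array number limits precision. The same fit over 30521 probes called 0 probes of the 9 genes. No saturated spot was present. For the Myocd ratio and bound, each RFP-positive array counted at its lowest signal well above background, or at the gene's signal where that was higher.

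The members and lists were chosen with earlier results of these data known. Named genes are the 9, up to 4 of smallest p per list, and 2 most alike per gene; other genes named were chosen after their values were seen. Alternatives covered scaling, background correction, the deposited table, filters, probe choice, variance models, the replicate block and left-out arrays. The background correction was normexp with an offset of 50 units added to each signal. The fit was tested on simulated data, where it recovered the sizes of the changes but called none of them at the adjusted threshold, the largest included. Python 3.11.15, pandas 2.3.3 and matplotlib 3.10.9 were used.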

Additional observations from a re-analysis of the deposited data

How the results depend on the processing

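No gene and no probe of the 9 genes passed a limma adjusted p of 0.05 under any alternative run. This says nothing of stability, since with 2 arrays against 2 the fit called none of the changes simulated in 200 of 13434 genes. With the settings as reported and a threshold of 0.1 the count was 0, with a smallest limma adjusted p of 0.110. The smallest adjusted p was 0.0788 without RFP-positive replicate 1 and 0.0933 with the mean of all probes of a gene. Genes at an unadjusted p under 0.05 numbered 872, and between 387 and 2754 with 1 array left out, lowest without RFP-negative replicate 2 and highest without RFP-positive replicate 1. Genes with every RFP-positive array 2-fold or more from every RFP-negative one numbered 183. Under normexp, whose offset of 50 units shrinks differences of weak signals, they numbered 12. They numbered 335 with no filter and 57 among genes well above background on all arrays. With 1 array left out, where fewer pairs are compared, they numbered 383 to 1471.

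Hand1 and Mesp1 kept their sign under every alternative run, with ranges of 0.02 to 0.21 and −1.16 to −0.31 over left-out arrays. Their fractions did not overlap, so leaving out an array cannot turn the sign. The filters, variance models and replicate block cannot change their differences either, so the kept sign is little evidence of stability. The sign turned with a left-out array for Nkx2-5 (−1.01 to 0.25), Isl1 (−0.074 to 0.11), Hand2 (−0.23 to 1.04), Mef2c (−0.031 to 0.18), Smarcd3 (−0.43 to 0.18) and Tcf21 (−0.38 to 0.41), and for Tcf21 under normexp (−0.093). Left-out arrays turned Nkx2-5 to 0.25 and 0.17, Hand2 to −0.23 and −0.01, Smarcd3 to 0.18 and 0.03, and Tcf21 to −0.22 and −0.38. The cause was not tested. The log2 ratio of Myocd, RFP-positive level at its lowest measurable signal over RFP-negative mean, ran from −2.29 to −0.09 over left-out arrays, with no value without RFP-negative replicate 1, with the mean of probes or with the block.

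The labels give both fractions replicates 1 and 2 without saying that a number marks a shared culture. Deviations of same-numbered arrays correlated at 0.092 over 13434 genes, so the numbers were not used as pairs. With the replicate block 0 genes passed and 1038 had an unadjusted p under 0.05. The block cannot change the differences, since each number holds 1 array of each fraction, and alters only their p. The differences were −0.74 for Mesp1 (limma adjusted p 0.649), −0.38 for Nkx2-5 (limma adjusted p 0.672) and 0.41 for Hand2 (limma adjusted p 0.674). Over all alternatives the limma adjusted p ran upward from 0.154 for Mesp1, 0.364 for Nkx2-5 and 0.287 for Hand2. Signal over background limits Nkx2-5 and Myocd most. Each gene rests on 1 probe.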
